A study of Mus musculus with 8 samples.

Results

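The immediate early transcription factors Egr1, Egr2, Egr3 and Junb were described in cultured bone mesenchymal stem cells (MSc) that lack hyaluronan synthases and in wildtype MSc. The genes were selected on their FPKM difference between these genotypes in the same libraries, so their levels and differences are given as a description with no test. They were found by exact gene name in the deposited table, where 5 of 76557 loci carry these 4 names, and 4 of the 5 were among the 9916 named loci that reached 1 FPKM in at least 4 of 8 libraries. The fifth, a second locus named Junb, was listed at 0.288 FPKM in Has-tKO 2, 0.293 FPKM in wildtype 2 and 0 in the other 6 libraries, and was not used further.

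The Has-tKO group held 4 libraries from MSc of 4 mice with constitutive knockout of Has1 and Has3 and a knockout of Has2 that 4-hydroxytamoxifen induces through Cre recombination. The wildtype group held 4 libraries from MSc of 4 C57Bl6/J mice. MSc of both groups came from femora and tibiae, were grown for 4 passages, received 4-hydroxytamoxifen for 48 h in passages 2 and 3, and were collected on day 7 of osteogenic differentiation. The sources used here do not give the driver of the Cre recombinase or the age of the mice. Wildtype carries no label of a Cre allele, so the engineered alleles and the loss of the synthases cannot be told apart. Of the targeted genes only Has3 carries a name in the table, at 0.663, 0.576, 0.621 and 0.150 FPKM in Has-tKO 1 to 4 and at 0.236, 0.415, 0.466 and 0.394 FPKM in wildtype 1 to 4, and since the sources used here do not say which part is deleted, these levels check no label.

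Levels are FPKM, fragments scaled by transcript length and sequencing depth, as deposited. A pair of libraries stood apart, Has-tKO 4 with 56.4% and wildtype 1 with 61.5% of their FPKM on loci without a gene name, against 45.4% to 48.7% in the other 6. Median-ratio size factors, which bring the typical locus of every library to one level, were 0.660 for wildtype 1 and 0.984 to 1.15 for the other 7. Over all tested loci the median log2 difference between Has-tKO and wildtype was 0.16 without scaling and -0.03 with it. Scaled values are therefore given beside many of the unscaled ones, and values not marked as scaled are unscaled. Mesenchymal stem cell markers summed to 418 to 499 FPKM in Has-tKO and 259 to 518 FPKM in wildtype. Osteoblast markers summed to 961 to 1370 FPKM in Has-tKO and 1580 to 1970 FPKM in wildtype. Most of that sum was Sparc, at 923 ± 139 FPKM in Has-tKO and 1300 ± 117 FPKM in wildtype. Of the 8 tested osteoblast markers 1, Dmp1, had a higher mean in Has-tKO (9.2 ± 3.63 FPKM, against 5.47 ± 1.64 FPKM in wildtype). The Dmp1 groups overlapped and the difference did not pass the test (limma adjusted p = 0.261).

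Immediate early genes are transcribed within minutes of a signal without new protein synthesis, because their promoters are held ready by factors such as the serum response factor and CREB that MAP kinases activate. Egr1, Egr2 and Egr3 are zinc finger factors that bind a shared GC-rich site. The corepressors Nab1 and Nab2 bind to them, and Nab2 is itself induced by Egr factors. Egr1 answers growth factors and mechanical load in many connective tissue cells, Egr2 directs hindbrain patterning and myelination, and Egr3 is needed for muscle spindles. Junb is a subunit of the dimeric factor AP-1 that can oppose the related subunit Jun, and in mice it is needed for normal bone formation.

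Promoter sequences are shown for Egr2 and Junb because a serum response factor site, a CREB site and a TATA box are the elements through which this class of genes is usually described. They come from RefSeq on GRCm38.p6, a different build from the GRCm39 named in the submitters' processing notes. Of the 3 genes looked up, Egr2, Egr3 and Junb, 2 had an entry, with 6 windows in all. Each window was searched for the CArG box by name, TGACGTCA and its core GACGTCA (the CREB site, the core lying within the full site), GCGNGGGCG (Egr), TGANTCA (AP-1) and the NF-kappaB site by name, all on both strands, and for TATAAA or TATATA on the sense strand. Capitals mark the matches. The Egr2 stretch is chr10:67537619-67537868 on the + strand and ends at the base before the start. The Junb stretch is chr8:84978720-84978998 on the - strand and runs from 250 bases before to 29 bases after the RefSeq start.
Egr2: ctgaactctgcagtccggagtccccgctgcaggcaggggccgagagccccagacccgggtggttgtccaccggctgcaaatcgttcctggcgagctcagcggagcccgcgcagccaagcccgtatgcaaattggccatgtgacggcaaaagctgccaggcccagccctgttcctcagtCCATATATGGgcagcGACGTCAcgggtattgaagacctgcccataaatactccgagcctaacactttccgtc
Junb: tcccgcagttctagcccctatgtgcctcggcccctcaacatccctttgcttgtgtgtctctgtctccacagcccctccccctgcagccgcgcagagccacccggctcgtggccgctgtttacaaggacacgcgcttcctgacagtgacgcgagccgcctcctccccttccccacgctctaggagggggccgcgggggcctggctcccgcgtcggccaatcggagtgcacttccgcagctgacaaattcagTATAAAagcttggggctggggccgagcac
The Egr2 stretch holds the CArG box CCATATATGG with its first base at -72 and the core GACGTCA at -57, counted back from the start. Of 32851 promoter windows of 300 bases, 1.63% hold a CArG box and 3.21% hold the core. The Egr2 window shown was picked for having the most matches, so these shares do not measure how rare its matches are. Both matches also lie in the 2 windows that overlap this one. Another Egr2 window, of a start further upstream, holds the CArG box CCTTTTTTGG at -72, and the most upstream one holds GGGAGCTCCC, a match to the NF-kappaB site, which 5.80% of windows hold. In the Junb window TATAAA begins at the RefSeq start itself, 30 bases before the start in the GENCODE annotation of the same genome, and 12.5% of windows hold such a TATA box. The other motifs searched (TGACGTCA in 1.79%, GCGNGGGCG in 5.55% and TGANTCA in 7.81% of windows) have no match in the windows of either gene, and the data here include no measure of binding at these windows.

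Egr1, on chromosome 18, had 6.99, 8.20, 8.08 and 9.00 FPKM in Has-tKO 1 to 4 and 0.828, 2.66, 2.58 and 1.64 FPKM in wildtype 1 to 4. All 4 Has-tKO libraries lay above all 4 wildtype libraries, and the lowest Has-tKO level was 2.63 times the highest wildtype level. The means were 8.07 ± 0.825 FPKM in Has-tKO and 1.93 ± 0.866 FPKM in wildtype (SD, n = 4 each), a ratio of 4.18. On the log2(FPKM + 1) scale, which understates differences of low genes, the difference was 1.68 (SE 0.22), and 1.5 (SE 0.16) after scaling. Within wildtype, the library that stood apart, wildtype 1, had the lowest level.

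Egr2, on chromosome 10, had the highest ratio between the genotypes among the 4 genes. It had 8.76, 3.59, 6.13 and 6.25 FPKM in Has-tKO 1 to 4 and 0.938, 0.921, 0.753 and 0.677 FPKM in wildtype 1 to 4. The means were 6.18 ± 2.11 FPKM in Has-tKO and 0.822 ± 0.128 FPKM in wildtype (SD, n = 4 each), a ratio of 7.52. The groups did not overlap, the lowest Has-tKO library being 3.83 times the highest wildtype library. Has-tKO 2 was the low library of its group and Has-tKO 1 the high one, whereas the unscaled wildtype libraries lay close together below 1 FPKM. Scaling put wildtype 1 at 1.42 scaled FPKM, against 0.688 to 0.855 in the other wildtype libraries, and the lowest Has-tKO library was then 2.21 times the highest wildtype library. The log2 difference was 1.93 (SE 0.21), and 1.74 after scaling.

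Egr3, on chromosome 14, was the least abundant of the 4, with 2.34, 2.43, 1.99 and 2.81 FPKM in Has-tKO 1 to 4 and 0.440, 0.873, 0.653 and 0.238 FPKM in wildtype 1 to 4. The groups did not overlap, and the means were 2.39 ± 0.337 FPKM in Has-tKO and 0.551 ± 0.274 FPKM in wildtype (SD, n = 4 each), a ratio of 4.34. The log2 difference was 1.14 (SE 0.17), and 1.0 after scaling. No wildtype library reached 1 FPKM for Egr2 or Egr3, so these genes entered the fit only through their Has-tKO levels. Egr4, the remaining Egr gene, was listed at 0 in all 8 libraries.

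Junb, on chromosome 8, was the most abundant, with 40.8, 30.5, 38.2 and 51.8 FPKM in Has-tKO 1 to 4 and 14.9, 14.8, 19.1 and 15.1 FPKM in wildtype 1 to 4. Wildtype 3 lay above the other wildtype libraries but below every Has-tKO library. The means were 40.3 ± 8.85 FPKM in Has-tKO and 16 ± 2.06 FPKM in wildtype (SD, n = 4 each), a ratio of 2.53. The log2 difference was 1.27 (SE 0.18), and 1.01 after scaling. Scaling left the Junb groups apart but closer, with the lowest Has-tKO library 1.18 times the highest wildtype library, which was then wildtype 1 at 22.5 scaled FPKM. Unscaled, the lowest Has-tKO level was 1.60 times the highest wildtype level.

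**Figure D1:**
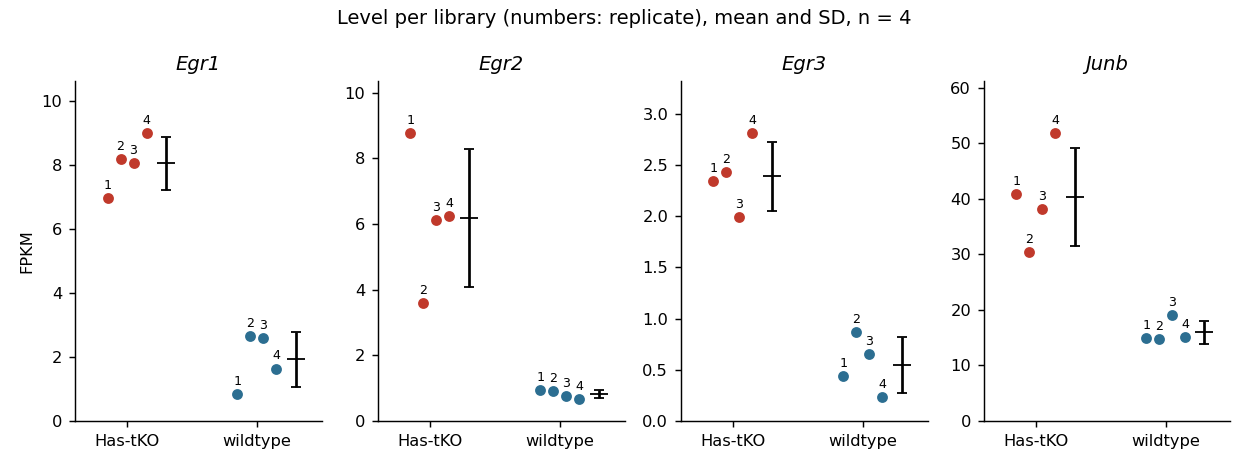
Levels of Egr1, Egr2, Egr3 and Junb in FPKM (vertical axes, linear from 0) in each Has-tKO and wildtype library, with points numbered by replicate and bars giving the mean and SD of 4 libraries. For each gene the 4 Has-tKO points lie above the 4 wildtype points, with the closest approach for Junb (30.5 FPKM in Has-tKO 2 and 19.1 FPKM in wildtype 3).

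The pattern that all 4 Has-tKO libraries lay above all 4 wildtype libraries was shared by 12.0% of the tested loci without scaling and by 5.62% after it. In the limma fit over all tested loci, 1.77% changed without scaling (1.58% higher and 0.192% lower in Has-tKO) and 2.65% after it (1.36% higher and 1.29% lower), at an adjusted p under 0.05. Nothing is read from these shares for the 4 genes, since the same difference chose them. The log2 differences with 1 library left out lay between 1.47 and 1.80 for Egr1, 1.77 and 2.13 for Egr2, 1.04 and 1.24 for Egr3, and 1.14 and 1.39 for Junb.

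**Figure D2:**
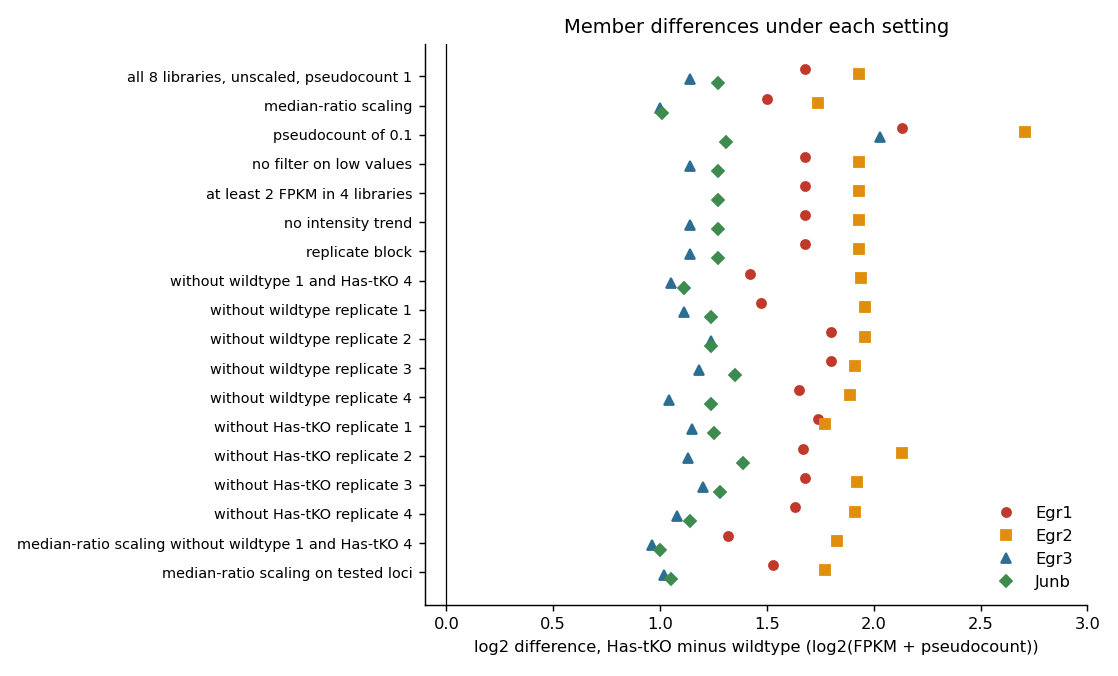
The log2 difference between Has-tKO and wildtype (horizontal axis, on the log2(FPKM + pseudocount) scale) for Egr1, Egr2, Egr3 and Junb under each processing setting (rows). All points lie above 0, and the highest are those with a pseudocount of 0.1, where Egr2 is at 2.71, Egr1 at 2.13 and Egr3 at 2.03. Egr3 has no point where at least 2 FPKM was required.

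The order of levels was Junb, Egr1, Egr2, Egr3 for the means of both genotypes, and Junb stood above the Egr genes in every library. Egr1 and Egr2 did not differ beyond their spread in Has-tKO (8.07 ± 0.825 and 6.18 ± 2.11 FPKM), and Egr2 was above Egr1 in Has-tKO 1 and in wildtype 1. In wildtype Egr2 and Egr3 had means of 0.822 ± 0.128 and 0.551 ± 0.274 FPKM. Egr2 was above Egr3 in each wildtype library, most closely in wildtype 2 (0.921 and 0.873 FPKM). In the ranking of tested loci by mean level, 96.5% of loci lay below Junb in Has-tKO and 89.6% in wildtype, whereas 65.6% lay below Egr2 in Has-tKO and 1.78% in wildtype. For Egr1 the shares were 73.3% in Has-tKO and 27.0% in wildtype, and for Egr3 29.3% in Has-tKO and 0.192% in wildtype. Egr2 and Egr3 reached 1 FPKM in no wildtype library and entered this ranking only through Has-tKO. Their low wildtype ranks therefore follow from the filter and are not read as a result.

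The libraries were not ordered alike by the 4 genes. Has-tKO 4 had the highest Egr1, Egr3 and Junb levels of its group, whereas Egr2 was highest in Has-tKO 1. Has-tKO 2 had the lowest Egr2 and Junb levels but the second highest Egr1 and Egr3 levels. Within genotypes the SD of log2 values was 0.345 for Egr1, 0.325 for Egr2, 0.209 for Egr3 and 0.247 for Junb, against a median of 0.278 over all tested loci.

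Ratios between 2 genes of one library do not depend on the scaling of that library. The 4 genes were chosen for their genotype difference, so a separation of their ratios to other genes is largely set by that choice. Egr1, Egr2 and Egr3 together had 18.1, 14.2, 16.2 and 18.1 FPKM in Has-tKO 1 to 4 and 2.21, 4.45, 3.99 and 2.56 FPKM in wildtype 1 to 4. Egr1 made up 38.7% to 57.7% of that sum in Has-tKO and 37.5% to 64.8% in wildtype, so its share overlapped between the genotypes. The ratio of Egr2 to Egr1 likewise overlapped, at 0.786 ± 0.341 in Has-tKO and 0.545 ± 0.394 in wildtype (SD, n = 4 each). The ratio of Egr2 to Junb did not, at 0.215, 0.118, 0.161 and 0.120 in Has-tKO 1 to 4 and 0.0631, 0.0621, 0.0395 and 0.0448 in wildtype 1 to 4.

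Junb was further compared with the other Jun subunits. Jund, which is expressed steadily in many cells, had 41.9 ± 6.64 FPKM in Has-tKO and 37.1 ± 3.23 FPKM in wildtype (log2 difference 0.16, limma adjusted p = 0.649, and -0.10 after scaling). The ratio of Junb to Jund was 0.996, 0.924, 0.840 and 1.08 in Has-tKO 1 to 4, against 0.361, 0.425, 0.558 and 0.396 in wildtype 1 to 4. Jund was the higher of the pair in 3 Has-tKO libraries and in all 4 wildtype libraries, and the ratios did not overlap between the genotypes. Junb was chosen for its genotype difference, so this separation is not read as a further result. Jun had 30.1 ± 2.60 FPKM in Has-tKO and 17.9 ± 4.24 FPKM in wildtype and did not pass the test (0.74, adjusted p = 0.0689, and 0.49 with adjusted p = 0.0515 after scaling). The ratio of Junb to Jun overlapped, since Has-tKO 2 lay at 1.16 and wildtype 1 at 1.22.

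Fos, the AP-1 partner of the Jun proteins and another serum response factor target, was set beside Egr1. It had 4.42, 5.44, 3.08 and 4.19 FPKM in Has-tKO 1 to 4 and 2.02, 3.04, 3.17 and 1.78 FPKM in wildtype 1 to 4. The Fos groups overlapped and the difference did not pass the test (0.60, limma adjusted p = 0.143, and 0.40 with adjusted p = 0.237 after scaling). The ratio of Egr1 to Fos was 1.58, 1.51, 2.62 and 2.15 in Has-tKO 1 to 4 and 0.409, 0.873, 0.814 and 0.925 in wildtype 1 to 4. Fos was the higher of the pair in each wildtype library and Egr1 in each Has-tKO library. As Egr1 was chosen for its genotype difference, this order is not read as a further result.

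**Figure D3:**
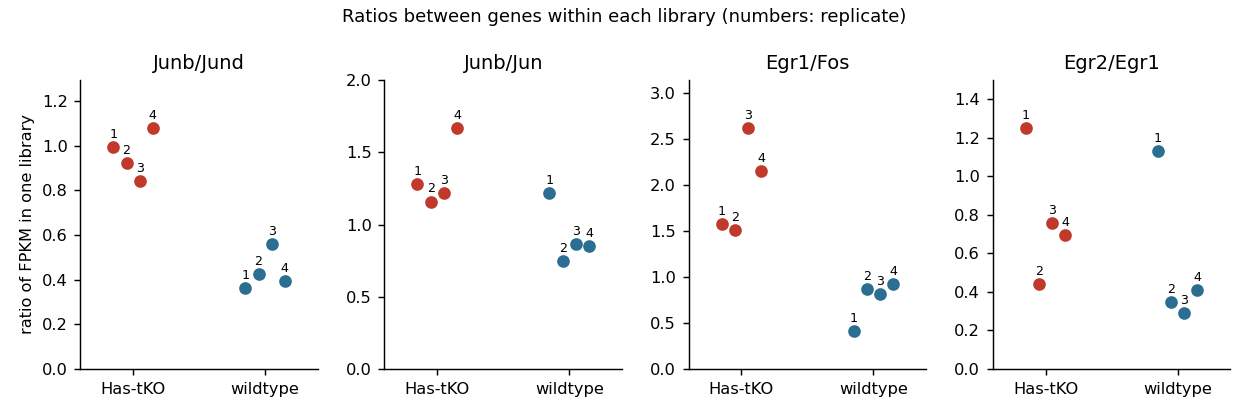
Ratios of FPKM between 2 genes in the same library (vertical axes, no unit, from 0) for Has-tKO and wildtype, with points numbered by replicate. Junb over Jund and Egr1 over Fos do not overlap between the genotypes, whereas Junb over Jun and Egr2 over Egr1 do, with wildtype 1 at 1.22 and 1.13. Junb, Egr1 and Egr2 were chosen for their genotype difference, which favours a separation of their ratios to genes that differ less.

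Other immediate early genes included several that were higher in Has-tKO, and none passed as lower. Of 59 listed genes 52 carry a name in the table and 46 were tested, and 13 of the 46 rose and none fell (28.3% higher, where 1.58% of all tested loci were). The median log2 difference of the 46 was 0.61, against 0.16 over all tested loci, and 25 of them (54.3%, against 12.0% of all tested loci) had all Has-tKO libraries above all wildtype libraries. After scaling 9 rose (19.6%, against 1.36% of all tested loci), all among the 13, with a median of 0.40, and 13 (28.3%, against 5.62%) had no overlap. At an unadjusted p under 0.05 there were 31 (67.4%), against 16.7% of all tested loci. Without Has-tKO 1 or without wildtype 4 none of the 46 passed the limma test, although 26 and 27 had an unadjusted p under 0.05 (11.9% and 12.2% of all tested loci in these fits), and without Has-tKO 4 the count was 7. The list was assembled with earlier results of these data known. Arc and Hes1, both among the 13, reached 1 FPKM in no wildtype library, so they were tested only because of their Has-tKO levels.

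Ier2, a nuclear regulator induced by growth factors, had 16.1, 10.2, 14.1 and 14.5 FPKM in Has-tKO 1 to 4 and 5.76, 4.97, 5.09 and 6.53 FPKM in wildtype 1 to 4. Its groups did not overlap, and it rose by 1.15 on the log2 scale (SE 0.17, limma adjusted p = 0.0127, and 0.0486 after scaling). Arc, best known as a synaptic protein of neurons, had 2.29 ± 0.271 FPKM in Has-tKO and 0.463 ± 0.267 FPKM in wildtype (1.18, adjusted p = 0.0109, and 0.00998 after scaling). Arc reached at most 0.832 FPKM in wildtype, so it entered the fit only through its Has-tKO levels. Maff, a small Maf factor that pairs with other leucine zipper proteins, had 4.35 ± 1.09 FPKM in Has-tKO and 1.33 ± 0.223 FPKM in wildtype (1.18, adjusted p = 0.0136, and 0.0256 after scaling).

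Atf3, a stress-induced partner of Jun proteins, had 18.4 ± 3.46 FPKM in Has-tKO and 8.35 ± 0.506 FPKM in wildtype and rose by 1.04 (limma adjusted p = 0.0152), but did not pass after scaling (0.80, adjusted p = 0.0556). The phosphatase Dusp1 behaved alike, with 12.8 ± 1.71 FPKM in Has-tKO and 6.53 ± 0.616 FPKM in wildtype (0.87, adjusted p = 0.0203, and 0.63 with adjusted p = 0.123 after scaling). The rest of the 13 were Plk3 (1.5), Dusp6 (1.35), Ccn2 (1.33), Dusp5 (1.10), Pim1 (0.97), Hes1 (0.88), Fosl1 (0.87) and Cebpd (0.65), of which Fosl1 and Cebpd did not pass after scaling. Plk3, Ccn2, Pim1, Hes1 and Cebpd were named after their values were seen. Hes1 reached at most 0.494 FPKM in wildtype, so it entered the fit only through its Has-tKO levels. Nr4a1, a nuclear receptor of the same class, was too low for the test, at 3.28, 0.990, 2.41 and 2.07 FPKM in Has-tKO 1 to 4 and 0.505, 0.653, 0.224 and 0.629 FPKM in wildtype 1 to 4. Fosb, also untested, had 0.392 ± 0.0737 FPKM in Has-tKO and 0.445 ± 0.0595 FPKM in wildtype.

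**Figure D4:**
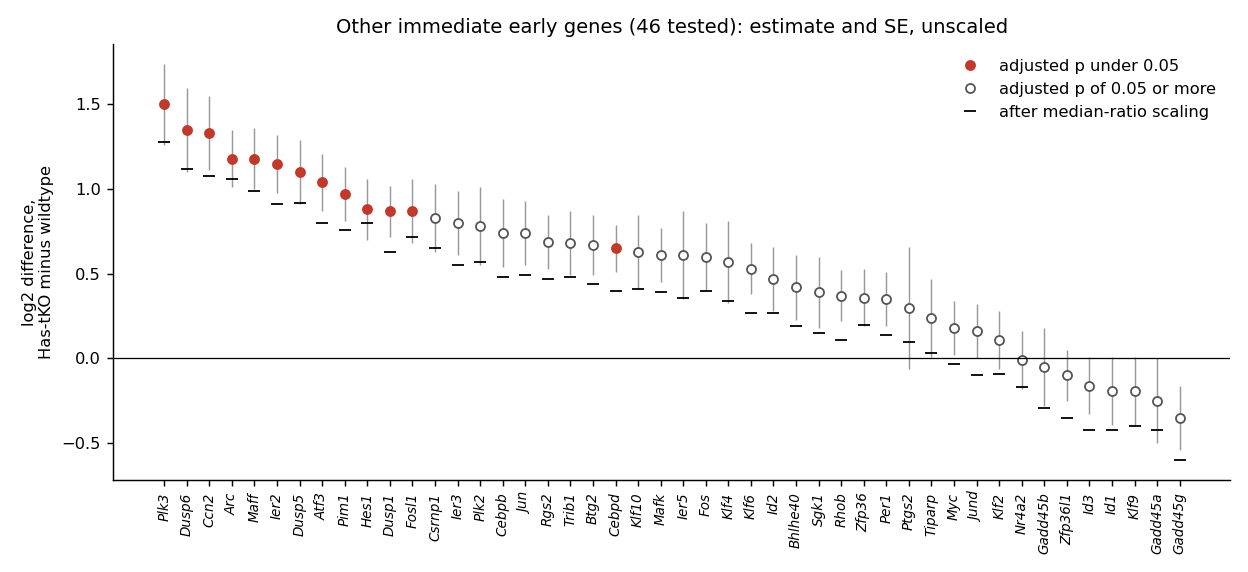
The log2 difference between Has-tKO and wildtype (vertical axis, on the log2(FPKM + 1) scale) for the 46 tested immediate early genes other than Egr1, Egr2, Egr3 and Junb. Circles and grey bars give the unscaled estimate and SE, filled where the adjusted p was under 0.05 (13 genes, from 0.65 for Cebpd to 1.5 for Plk3), and dashes give the estimate after scaling, which lies lower for every gene shown.

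Genes that act before, beside and after the Egr and AP-1 factors were counted in 8 lists with 82 tested genes. These lists too were assembled with earlier results of these data known, which can raise their shares above that of all tested loci, here and for the single lists. In all, 10 rose (12.2%, against 1.58% of all tested loci) and none fell, 6 of them also among the 14 tested genes that these lists share with the immediate early list. After scaling 7 rose (8.54%, against 1.36%) and 1 fell. An unadjusted p under 0.05 was found for 16.7% of all tested loci, and the counts at that level for the single lists stand against this share. Without wildtype 4 or without Has-tKO 1 only Icam1 of the 82 passed, without Has-tKO 4 there were 4, and without wildtype 1 there were 13 higher and 3 lower.

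Upstream, 1 of 21 tested members of the MAP kinase chain rose (4.76%, against 1.58% of all tested loci, median log2 difference 0.35 against 0.16). This was Mapkapk2, the kinase that p38 activates, with 71.7 ± 12.9 FPKM in Has-tKO and 33.3 ± 7.96 FPKM in wildtype (1.10, SE 0.20, limma adjusted p = 0.0229, and 0.0322 after scaling). Its call was lost without Has-tKO 1 (adjusted p = 0.106), Has-tKO 4 (0.0678) or wildtype 4 (0.0997), and held with any other library left out. Of the 21 members, 4 had an unadjusted p under 0.05, a level that 16.7% of all tested loci reached. The gene of the serum response factor, Srf, has no named locus in the table. Its cofactor Mrtfa had 8.63 ± 0.454 FPKM in Has-tKO and 7.34 ± 1.53 FPKM in wildtype, and neither Mrtfa nor Elk1, the 2 tested members of that list, passed the limma test (none at an unadjusted p under 0.05).

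Beside the Egr factors, none of 9 tested NAB corepressors and zinc finger relatives passed the limma test, and 4 had an unadjusted p under 0.05 (16.7% of all tested loci did). Nab2 had 16.5 ± 1.84 FPKM in Has-tKO and 12.5 ± 0.640 FPKM in wildtype (0.37, limma adjusted p = 0.228, and 0.12 after scaling). Nab1 had 13.4 ± 1.96 FPKM in Has-tKO and 9.22 ± 4.26 FPKM in wildtype (0.62, adjusted p = 0.352, and 0.40 after scaling). The ratio of Egr1 to Nab2 was 0.402, 0.501, 0.443 and 0.643 in Has-tKO 1 to 4 and 0.0718, 0.206, 0.204 and 0.128 in wildtype 1 to 4, with no overlap. The choice of Egr1 for its genotype difference favours this separation. The zinc finger factor Klf6 had 26.3 ± 1.02 FPKM in Has-tKO and 18.1 ± 2.06 FPKM in wildtype (0.53, adjusted p = 0.0926, and 0.27 after scaling). Among 13 tested AP-1 and CREB subunits other than Junb, 3 rose (Maff, Atf3 and Fosl1) and none fell. The share was 23.1%, against 1.58% of all tested loci, and the median was 0.31 against 0.16. At an unadjusted p under 0.05 there were 6 of these 13. After scaling only 1 of the 13 rose, Maff (7.69%, against 1.36% of all tested loci), and the median was 0.13 against -0.03. The Fos relative Fosl1, a slower target of the same signals, had 2.50 ± 0.447 FPKM in Has-tKO and 0.944 ± 0.446 FPKM in wildtype (0.87, adjusted p = 0.0478, and 0.0659 after scaling), and passed in 1 of 8 fits with a library left out, that without wildtype 3.

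Of 13 tested MAP kinase feedback genes, 3 rose and none fell (23.1% higher, against 1.58% of all tested loci), with a median of 0.49 against 0.16. An unadjusted p under 0.05 was found for 7 of the 13, against 16.7% of all tested loci. After scaling 2 rose, Dusp5 and Dusp6 (15.4%, against 1.36% of all tested loci), with a median of 0.25 against -0.03. Dusp5, a phosphatase of nuclear ERK, had 3.67 ± 0.733 FPKM in Has-tKO and 1.2 ± 0.461 FPKM in wildtype (1.10, SE 0.19, limma adjusted p = 0.0181, and 0.0324 after scaling). Dusp6, which acts on cytoplasmic ERK, had 18 ± 4.27 FPKM in Has-tKO and 6.59 ± 2.36 FPKM in wildtype (1.35, SE 0.25, adjusted p = 0.0226, and 0.0239 after scaling). The third was Dusp1, described above. All 3 lost their calls without Has-tKO 1, Has-tKO 4 or wildtype 4. Dusp6 also lost its call without Has-tKO 2 (adjusted p = 0.0603) and Dusp1 without wildtype 2 (0.0566). Dusp4 did not pass, at 11.7 ± 2.15 FPKM in Has-tKO and 6.79 ± 0.820 FPKM in wildtype (0.70, adjusted p = 0.0598, and 0.46 after scaling).

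Downstream, 3 of 14 tested genes described elsewhere as Egr1 targets rose, with and without scaling, and none fell. Without scaling 21.4% were higher, against 1.58% of all tested loci, with a median of 0.44 against 0.16. There were 8 of the 14 at an unadjusted p under 0.05, against 16.7% of all tested loci. The adhesion molecule Icam1 had 35.4 ± 5.81 FPKM in Has-tKO and 12.2 ± 2.62 FPKM in wildtype (1.48, SE 0.19, limma adjusted p = 0.00633) and passed with each library left out in turn. The cytokine Tnf had 8.49 ± 2.14 FPKM in Has-tKO and 2.20 ± 0.783 FPKM in wildtype (1.58, SE 0.23, adjusted p = 0.0109) and lost its call without Has-tKO 1 (0.0541) or wildtype 4 (0.0547). Both genes are also known targets of NF-kappaB. The growth factor Pdgfb had 7.80 ± 0.952 FPKM in Has-tKO and 3.90 ± 0.906 FPKM in wildtype (0.86, adjusted p = 0.0336) and passed only without wildtype 1 or wildtype 3 when a library was left out. Trp53 had 4.08 ± 0.291 FPKM in Has-tKO and 2.37 ± 0.293 FPKM in wildtype (0.60, adjusted p = 0.0580).

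Tendon and myelin are tissue programmes in which Egr1 and Egr2 are known to act. None of 8 tested tendon genes passed the limma test without scaling, and 2 had an unadjusted p under 0.05, a level that 16.7% of all tested loci reached. Kera, a proteoglycan of tendon and cornea, had 2.44 ± 0.901 FPKM in Has-tKO and 5.36 ± 1.25 FPKM in wildtype (-0.90, adjusted p = 0.0550) and fell after scaling (-1.09, adjusted p = 0.0210). Tnmd, a tendon membrane protein, had 2.09 ± 0.342 FPKM in Has-tKO and 1.2 ± 0.310 FPKM in wildtype (0.50, adjusted p = 0.147). Of 10 myelin and Schwann cell genes tied to Egr2 only 3 could be tested, and none passed (1 at an unadjusted p under 0.05).

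Myeloid markers, chiefly of macrophages, also differed between the genotypes beside all of these groups, and their part in the levels of Egr1, Egr2, Egr3 and Junb was not tested. In libraries of whole cultures, a different number of cells of a type and a different amount of RNA per cell cannot be told apart. The marker list was likewise assembled with earlier results of these data known. All 23 named of 28 listed markers were detected, none being at 0 in all libraries. Without scaling they summed to 1170, 860, 733 and 1100 FPKM in Has-tKO 1 to 4. In wildtype 1 to 4 the unscaled sums were 429, 460, 713 and 420 FPKM, so wildtype 3 lay close to the lowest Has-tKO library. Scaling raises the sum of wildtype 1, whose size factor was 0.660, and the distances between these sums therefore depend on scaling. Of 22 tested markers 5 rose and none fell (22.7%, against 1.58% of all tested loci, median 1.0), namely Clec4e, Mertk, Cx3cr1, Cd52 and Spi1, and 3 after scaling (median 0.74). None passed without Has-tKO 1 or without wildtype 4, although 20 had an unadjusted p under 0.05 in each case, where 11.9% and 12.2% of all tested loci did. Leaving out Has-tKO 2 or Has-tKO 4 gave 1, leaving out wildtype 2 gave 2, leaving out Has-tKO 3 gave 3, leaving out wildtype 1 gave 8 and leaving out wildtype 3 gave 16.

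Clec4e, a lectin receptor of activated macrophages, had 18.4 ± 6.94 FPKM in Has-tKO and 4.47 ± 2.43 FPKM in wildtype (1.86, SE 0.33, limma adjusted p = 0.0203). Spi1, the transcription factor PU.1 that defines the myeloid lineage, had 15.5, 10.4, 13.9 and 16.8 FPKM in Has-tKO 1 to 4 and 4.50, 7.14, 9.54 and 4.54 FPKM in wildtype 1 to 4 (1.06, adjusted p = 0.0458, and 0.0643 after scaling). The closest unscaled marker sums were those of Has-tKO 3 and wildtype 3 (733 and 713 FPKM). The single markers were not matched, 16 of the 23 being higher and 7 lower in Has-tKO 3. Clec4e had 22.9 FPKM in Has-tKO 3 and 5.34 FPKM in wildtype 3, the complement gene C1qb had 180 FPKM in Has-tKO 3 and 229 FPKM in wildtype 3, and the macrophage receptor Csf1r had 70.5 FPKM in Has-tKO 3 and 74.6 FPKM in wildtype 3. Egr1 had 8.08 FPKM in Has-tKO 3 and 2.58 FPKM in wildtype 3, and Junb had 38.2 FPKM in Has-tKO 3 and 19.1 FPKM in wildtype 3, a direction that the choice of the 4 genes fixed. These are single libraries, chosen after their sums were seen, with no test.

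**Figure D5:**
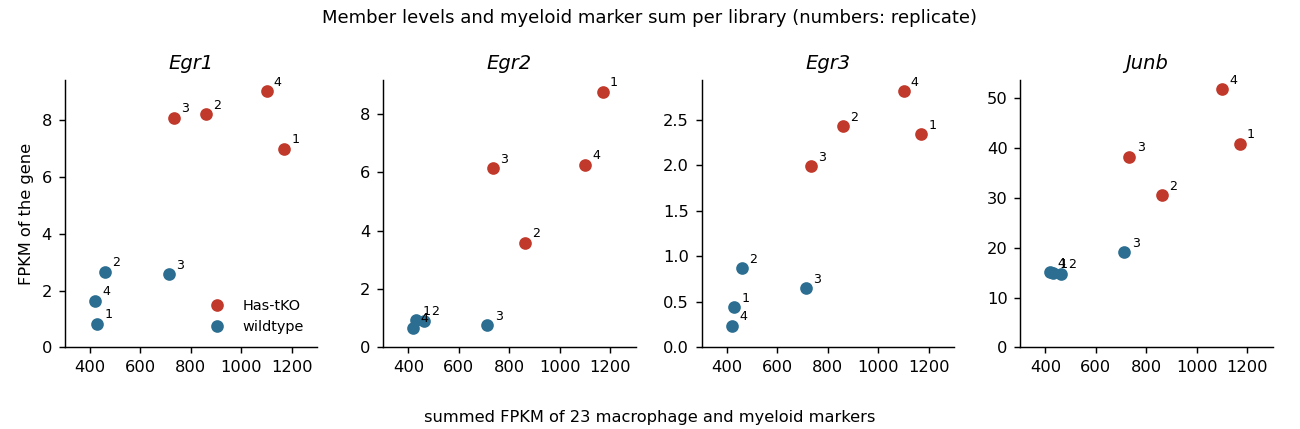
Level of Egr1, Egr2, Egr3 and Junb in FPKM (vertical axes, from 0) against the summed FPKM of 23 macrophage and myeloid markers (horizontal axes) in each Has-tKO and wildtype library, numbered by replicate. All values are unscaled. Has-tKO 3 and wildtype 3 lie close on the horizontal axis (733 and 713 FPKM), and the order of the 4 genes in that pair was fixed by how the genes were chosen.

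Other cell types gave lower or mixed values. Lymphocyte markers summed to at most 0.572 FPKM in Has-tKO and 0.290 FPKM in wildtype, with 5 of 10 at 0 in every library. Endothelial markers summed to at most 1.26 FPKM in Has-tKO and 0.825 FPKM in wildtype. Osteoclast markers, which share a lineage with macrophages, summed to 35.4 to 56.4 FPKM in Has-tKO and 38.7 to 114 FPKM in wildtype. None of 5 tested osteoclast markers passed the limma test without scaling (3 at an unadjusted p under 0.05, against 16.7% of all tested loci), and Acp5, the phosphatase of osteoclasts, fell after it (-1.71, adjusted p = 0.0497). None of the 8 tested mesenchymal stem cell markers and none of the 8 tested osteoblast markers passed without scaling (1 and 5 at an unadjusted p under 0.05), whereas after it 1 mesenchymal marker rose, Alcam (0.68, adjusted p = 0.0389), and 3 osteoblast markers fell, Alpl, Ibsp and Smpd3.

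Genes whose pattern over the 8 libraries was most like each of the 4 were ranked by the mean absolute difference of centred log2(FPKM + 1) values, over 9915 loci. For Egr1 these were Hmga1b (0.180), Cxcl14 (0.190) and Tnf (0.196), where the median over all loci was 0.763. Hmga1b is a near-identical copy of Hmga1, so its level is uncertain. For Egr2 they were Nfkbie (0.221), Cxcl2 (0.253) and Acod1 (0.268), against a median of 0.893. For Egr3 they were Serpina3f (0.124), Rasgef1b (0.144) and Vav1 (0.153), against a median of 0.509, and Serpina3f belongs to a family of close copies. For Junb they were Dusp5 (0.112), Nfkbie (0.135) and Maff (0.137), against a median of 0.574.

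None of the 4 genes was among the 3 nearest of another. Junb was the nearest of them to Egr2 (0.332, rank 11) and to Egr3 (0.208, rank 47), whereas Egr3 was the nearest to Egr1 (0.270, rank 20) and to Junb (0.208, rank 31). Cxcl2, a neutrophil chemokine, had 3.14 ± 0.485 FPKM in Has-tKO and 0.257 ± 0.0843 FPKM in wildtype, and Nfkbie, an inhibitor of NF-kappaB, had 14.7 ± 2.87 FPKM in Has-tKO and 4.52 ± 0.444 FPKM in wildtype. Since likeness to these 4 genes chose them, no test is given for them.

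Genes that neighbour the 4 in the GENCODE annotation were measured on loci of their own. Ado, next to Egr2, had a mean of 14.2 FPKM in Has-tKO and 10.2 FPKM in wildtype (0.45, limma adjusted p = 0.177), and Prdx2, next to Junb, had 28.0 FPKM in Has-tKO and 37.8 FPKM in wildtype (-0.42, adjusted p = 0.191). Etf1, next to Egr1, had 21.1 FPKM in Has-tKO and 15.4 FPKM in wildtype (0.49, adjusted p = 0.337). Bin3, next to Egr3, had 5.04 FPKM in Has-tKO and 3.44 FPKM in wildtype (0.43, adjusted p = 0.228). Gm32255, a noncoding gene that overlaps Egr2, was listed at a mean of 0.0238 FPKM in Has-tKO and 0 in wildtype, and without strand information its reads cannot be separated from those of Egr2.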

How the data were processed

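RNA was sequenced from 8 mouse MSc libraries, 4 Has-tKO and 4 wildtype, each from a separate mouse. Libraries were made from 100 ng of total RNA by depletion of ribosomal RNA and Nextera tagmentation, per the labels' protocols, and do not record the strand. The deposited values are FPKM per locus, made by the authors. Per the submitters' processing notes, bcl2fastq, fastp, HISAT2, StringTie and DESeq2 were used, with the builds GRCm39 and hg38. The sources used here do not give versions, options or the role of hg38. Library columns were assigned by the names in the file headers. A search of low values for whole-read steps, in 7 libraries by their ratio to wildtype 2, found none, so depth is unknown and no counting error is given.

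Loci with a gene name that reached 1 FPKM in 4 or more libraries (9916) were fitted on the log2(FPKM + 1) scale with limma 3.58.1 in R 4.3.3 (genotype only, empirical Bayes with an intensity trend, two-sided), with Benjamini-Hochberg adjustment over all of them and a threshold of 0.05. Scaled values were divided by median-ratio size factors computed on 19489 loci above 0 in every library. Where a name stood on several loci, the one with the highest mean was used. The fit was tested on simulated data. Alternatives were another pseudocount, other filters, scaling, no trend, a replicate block and libraries left out. Replicate numbers of the 2 groups did not pair the libraries (correlations of deviations of same-numbered libraries from -0.121 to 0.311).

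Egr1, Egr2, Egr3 and Junb and the gene lists were chosen with earlier results of these data known. Named genes are these 4, a fixed set (Fos, Jun, Jund, Atf3, Nab1, Nab2, Srf, Ier2 and Dusp1), up to 4 members of each list with the smallest p, and the 3 loci most like each of the 4 genes. Other genes were named after their values were seen. Neighbouring genes and chromosomes came from GENCODE on GRCm38.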

Additional observations from a re-analysis of the deposited data

Results flagged for a closer look

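A library stood far from the other 3 of its genotype, by Dixon's ratio of gap to range (95% critical value), in 16 of 124 groups examined, where chance gives about 1 in 20. The FPKM were unscaled and the groups share libraries, so this count does not measure an excess over chance.

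Among the genes described first, Junb had 19.1 FPKM in wildtype 3, above 14.8 to 15.1 FPKM in the other wildtype libraries. Dusp5 was also high in wildtype 3, at 1.88 FPKM against 0.898 to 1.04 FPKM. Wildtype 3 had the highest unscaled sum of myeloid markers of its group, and a link was not tested. These are unscaled levels, and after scaling Junb was highest in wildtype 1 (22.5 scaled FPKM), above wildtype 3 (18.1 scaled FPKM). Without scaling Egr1 and Egr3 were highest in wildtype 2 and Egr2 in wildtype 1. Jun had 26.3 FPKM in Has-tKO 2, below 31.1 to 31.8 FPKM in the other Has-tKO libraries.

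Has-tKO 4, one of the libraries that stood apart, was low for Nt5e (1.57 FPKM, others 4.15 to 4.38) and Itgb1 (71.5 FPKM, others 90.8 to 93.9) and high for Grb2 (18.4 FPKM, others 15.1 to 15.3). Has-tKO 1 was high for Icam1 (44.1 FPKM, others 32.3 to 32.7) and Mertk (15.7 FPKM, others 9.18 to 10.3). Has-tKO 3 was high for the osteoclast genes Mmp9 (12.6 FPKM, others 5.05 to 5.88) and Nfatc1 (5.02 FPKM, others 4.34 to 4.38). Wildtype 1, the other library that stood apart, was low without scaling for Nab2 (11.5 FPKM, others 12.7 to 12.9), Mrtfa (5.05 FPKM, others 8.00 to 8.26), Pmp22 (16.1 FPKM, others 28.2 to 29.3), Nfatc1 (2.13 FPKM, others 4.22 to 4.36) and Nt5e (1.90 FPKM, others 6.35 to 6.76). The size factor of wildtype 1 was 0.660, so low unscaled levels in it are not particular to these genes. Cxcl2 was low in wildtype 4 (0.131 FPKM, others 0.295 to 0.306).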

How the results depend on the processing

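The log2 differences of Egr1, Egr2, Egr3 and Junb stayed positive under every setting run. A pseudocount of 0.1 in place of 1 moved Egr1 to 2.13, Egr2 to 2.71 and Egr3 to 2.03. Scaling moved Junb to 1.01, and scaling without wildtype 1 and Has-tKO 4 moved Egr1 to 1.32 and Junb to 1.0. With 1 library left out Egr1 lay at 1.47 to 1.80, Egr2 at 1.77 to 2.13, Egr3 at 1.04 to 1.24 and Junb at 1.14 to 1.39. Egr3 was not testable where at least 2 FPKM was required.

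Counts of calls moved far more, and the cause was not tested. The 176 genes changed became 111 with a pseudocount of 0.1, 2 with no filter on 27220 loci, 275 with size factors from tested loci, 358 without wildtype 1 and Has-tKO 4, and 266 with scaling as well. They ranged from 10 (without wildtype 4) to 349 (without wildtype 1) with 1 library left out. The share higher in Has-tKO was 89.2% without scaling and 51.3% with it. Immediate early genes went to 0 with no filter (31 at an unadjusted p under 0.05, as 9.31% of all loci then were) and to 20 without both libraries, and ranged from 0 to 19 with 1 library left out. Regulators, partners and targets went to 0 with no filter (31 unadjusted) and 17 without both libraries, with a range of 1 to 16. Myeloid markers went to 3 with scaling, with or without both libraries, 2 with a pseudocount of 0.1, 0 with no filter (21 unadjusted) and 9 where at least 2 FPKM was required, with a range of 0 to 16.

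With a replicate block, which rests on numbers alone, 147 genes changed, with 11 immediate early genes, 8 regulators and 4 myeloid markers, and 1 of 4 Has-tKO libraries correlated best with its own number. Of 16 named genes that passed, leaving aside those named for their likeness alone, only Icam1 passed with each library left out, and 7 in at least 6 of these 8 fits. The settings with both libraries left out together with scaling, and with size factors from tested loci, were chosen after seeing the data. Depth is unknown, so no floor can be given for genes near 0 FPKM.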
